A study of Mus musculus with 8 samples.

Results

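Hypoxia response and glycolysis genes were described in 8 tumors of the murine prostate cancer line Myc-CaP. The genes were chosen by name, as 34 symbols for the route from glucose import to lactate export, the hypoxia-inducible factor (HIF) subunits, the enzymes that mark HIF for destruction, and well-known genes that hypoxia induces. Of these, 33 were found among the 38115 genes counted. The name Ca9 is not used in the count tables, which list carbonic anhydrase IX as Car9, a gene for which RefSeq gives Ca9 as a synonym. Car9 was therefore described beside the 33 and is not part of their counts. No measured value entered the choice, although earlier results of these data were known when it was made.

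Myc-CaP cells carry a MYC transgene, and the tumors grew after the cells were placed in the anterior prostate of male FVB mice. The androgen sensitive line (Myc-CaP/AS) and the castrate resistant line (Myc-CaP/CR) are 2 separate cell lines, and hosts were intact or castrated by surgery before transplantation. There were 2 tumors in each of 4 groups: primary AS, metastatic AS, primary CR and metastatic CR. All are grafts of MYC-driven cells, so no group lacks the transgene. The ages of the mice, the organ of each metastasis and the primary tumor that each metastasis matches are not given in the sources used here, and the numbers 1 and 2 carry no pairing. Phenotype runs together with the cell line, so the effect of the line, of castration and of androgen response cannot be told apart. Sequencing depth was also lower in most castrate resistant tumors, and its part in the differences was not tested. The sample identifiers in the labels run in separate series for the phenotypes, and what they stand for is not given. The labels call every metastasis matched, and nothing in them says that the tumors came from separate mice. Tumors of the same mouse would not be independent, and no test between phenotypes takes account of that. P-values therefore measure only the spread between these 8 samples.

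When oxygen is plentiful, prolyl hydroxylases of the Egln family modify HIF alpha subunits, which are then destroyed. When oxygen is short, the alpha subunit (Hif1a or Epas1) is stabilised, joins Arnt and binds short DNA elements called hypoxia response elements, whose core is written ACGTG or GCGTG. Targets include the glucose transporter Slc2a1, most glycolytic enzymes, the pyruvate dehydrogenase kinase Pdk1, which keeps pyruvate out of the mitochondria, and the lactate exporter Slc16a3. MYC is also known to raise many glycolytic genes, including Hk2 and Ldha. HIF is controlled mainly at the protein level, and these data measure RNA alone.

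Libraries held 61237285 to 91886163 counts in androgen sensitive tumors and 20905806 to 76887592 counts in castrate resistant tumors. Depth was lower in 3 of the 4 castrate resistant tumors than in any androgen sensitive tumor, and primary CR1 lay in the androgen sensitive range. Levels are given as CPM, the count scaled to a library of 1000000 counts after correction by TMM, a factor that aligns most genes between tumors. Each of the 33 genes passed the filter on low counts in every comparison, and the smallest raw count was 20, for Adm in primary CR2. Of the prostate tumor markers, Krt8 (36.4 to 710 CPM) and Hoxb13 (6.24 to 47.5 CPM) were present. Epcam, Cdh1 and Krt18 stayed below 1 CPM, so the epithelial label rests on some of its markers only. Defining genes of lung epithelium, lymphocytes and adipocytes other than Fabp4 were at or near 0 in every tumor. In such bulk samples, fewer cells of a type and less RNA per cell cannot be told apart.

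The start regions of these genes often held the letters of the hypoxia response element. RefSeq start regions (build GRCm38.p6) were found for 32 of the 34 names, and the 160 bases before the first listed start were searched for ACGTG and GCGTG on both strands. A CACGTG palindrome counts once on each strand. One or more matches were present in 25 of 32 (78.1%), against 30% of the first start regions of 27025 genes. ACGTG alone was present in 50% against 11.7%, and GCGTG alone in 53.1% against 21.7%. The median GC content was 65.3% for the 32 and 53.8% for all genes and the part of base composition in the motif shares was not tested. A match is a description of letters and does not show binding. The regions of the 7 genes that later differ between phenotypes are printed first, followed by those of Slc2a1, Ldha and Bnip3, which stand for import, the last enzyme and a hypoxia-induced gene. Capitals mark ACGTG or GCGTG, or CACGT or CACGC where the match lies on the other strand, and each line reads 5′ to 3′ toward the start of transcription.
Pdk1 (chr2:71873064-71873223, plus strand): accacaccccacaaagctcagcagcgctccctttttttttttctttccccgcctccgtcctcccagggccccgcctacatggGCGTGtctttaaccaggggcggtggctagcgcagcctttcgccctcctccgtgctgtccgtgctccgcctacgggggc
Hif1a (chr12:73907707-73907866, plus strand): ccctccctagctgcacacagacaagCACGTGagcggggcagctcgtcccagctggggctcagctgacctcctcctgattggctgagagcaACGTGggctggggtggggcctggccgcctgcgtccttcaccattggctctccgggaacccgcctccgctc
Egln1 (chr8:124949255-124949414, minus strand): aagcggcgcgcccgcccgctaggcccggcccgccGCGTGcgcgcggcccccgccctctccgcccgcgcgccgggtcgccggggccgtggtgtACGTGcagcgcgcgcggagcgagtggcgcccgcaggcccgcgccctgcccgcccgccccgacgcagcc
Pfkfb3 (chr2:11553930-11554089, minus strand): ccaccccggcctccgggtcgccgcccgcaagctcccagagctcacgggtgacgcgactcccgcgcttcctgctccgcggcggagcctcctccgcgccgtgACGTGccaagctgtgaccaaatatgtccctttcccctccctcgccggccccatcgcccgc
Hk2 (chr6:82774455-82774614, minus strand): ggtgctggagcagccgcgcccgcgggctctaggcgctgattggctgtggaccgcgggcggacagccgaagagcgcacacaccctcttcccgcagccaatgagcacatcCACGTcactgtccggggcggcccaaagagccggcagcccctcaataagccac
Pfkm (chr15:98092429-98092588, plus strand): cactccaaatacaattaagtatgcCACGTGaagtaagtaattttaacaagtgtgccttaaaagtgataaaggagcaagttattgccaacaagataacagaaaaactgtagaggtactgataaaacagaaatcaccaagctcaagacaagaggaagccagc
Pfkfb4 (chr9:108991742-108991901, plus strand): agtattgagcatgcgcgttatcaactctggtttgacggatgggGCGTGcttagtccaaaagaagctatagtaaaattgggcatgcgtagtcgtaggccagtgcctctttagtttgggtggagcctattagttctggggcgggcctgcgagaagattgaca
Slc2a1 (chr4:119108585-119108744, plus strand): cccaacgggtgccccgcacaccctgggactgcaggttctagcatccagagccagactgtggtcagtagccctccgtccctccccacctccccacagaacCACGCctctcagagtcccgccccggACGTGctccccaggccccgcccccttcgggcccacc
Ldha (chr7:46845644-46845803, plus strand): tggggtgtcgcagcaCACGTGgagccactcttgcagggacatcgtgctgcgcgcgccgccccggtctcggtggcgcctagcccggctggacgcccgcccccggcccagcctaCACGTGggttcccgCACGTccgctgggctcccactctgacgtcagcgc
Bnip3 (chr7:138909507-138909666, minus strand): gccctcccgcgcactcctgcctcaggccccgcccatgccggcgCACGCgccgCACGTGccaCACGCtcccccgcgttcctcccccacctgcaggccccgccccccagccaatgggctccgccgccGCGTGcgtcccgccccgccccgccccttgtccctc
Ldha and Bnip3 each held 5 matches, the most among the 32. Matches were present in 7 of the 7 genes called between phenotypes and in 18 of the 25 others, so they did not separate genes that were higher from genes that were lower. Pfkm has 4 listed starts, and Pdk1, Pfkfb3 and Ldha have 2 each. Only the first start of each gene is shown and counted.

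Along the pathway, levels spanned several orders of magnitude on the scale of CPM per kilobase of exon, which allows genes to be compared. The mean over 8 tumors was highest for Pkm, which makes pyruvate, at 323 CPM per kb, followed by the aldolase Aldoa at 211, lactate dehydrogenase Ldha at 145, and the triose phosphate isomerase Tpi1 at 100.1. These 4 genes were not fully separated from tumor to tumor: Ldha ranged from 88.3 to 195 and Aldoa from 143 to 311 CPM per kb. The glucose transporter Slc2a1 stood at 6.32 CPM per kb, with a range of 4.24 to 10.4. The lactate exporter Slc16a3 had the lowest mean, at 0.394 CPM per kb. Among the HIF subunits, Hif1a was at 28.3, Arnt at 4.10 and Epas1 at 1.27 CPM per kb. Reads with more than 1 genomic match were discarded upstream, and 10 of the 33 genes share over 10% of their read-length windows with another gene, from 10.1% (Ndrg1) and 15.1% (Tpi1) through 28.2% (Ldha), 52.3% (Pkm) and 67.5% (Pgk1) to 77.4% (Bnip3) and 85.1% (Eno1). The windows also count exons of another gene at the same locus, where a read has 1 genomic match and is kept at mapping. Pfkp (16.1%) and Ndrg1 (10.1%) shared windows with no pseudogene, and exons of other genes overlap both. The levels of these 10 genes are therefore uncertain, but not all through lost reads.

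**Figure D1:**
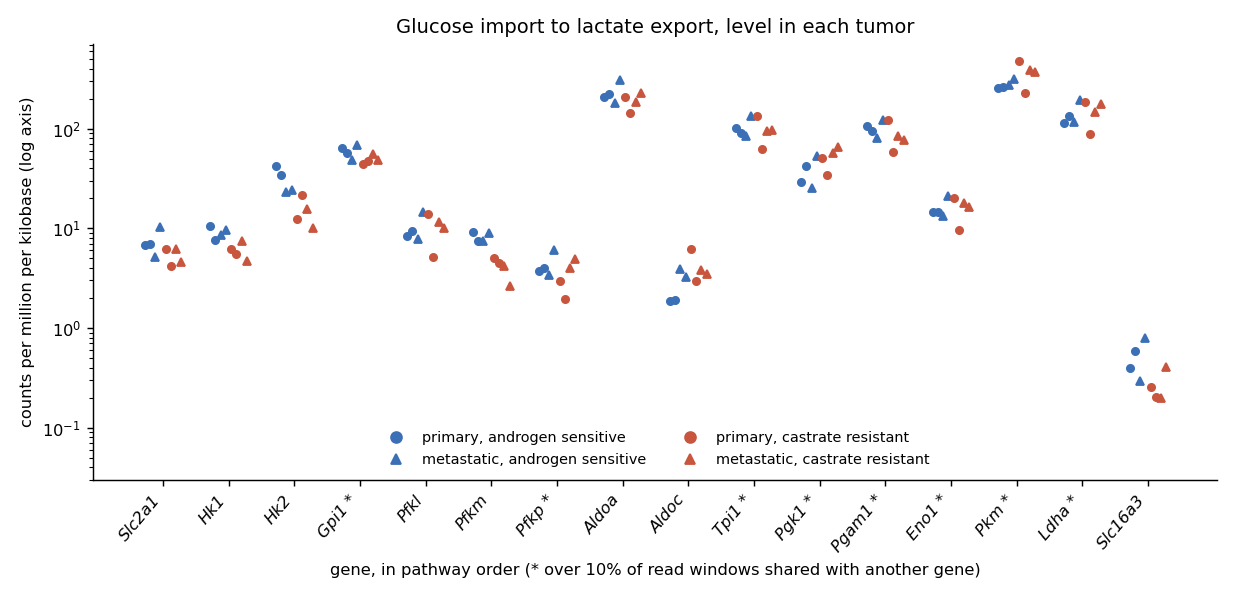
Level of the 16 genes from glucose import to lactate export in each of 8 tumors, in CPM per kilobase of exon on a log axis, with circles for primary and triangles for metastatic tumors, blue for androgen sensitive and red for castrate resistant. Pkm reached 481 in primary CR1, whereas Slc16a3 stayed between 0.198 and 0.798, and asterisks mark genes with over 10% of read windows shared with another gene.

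Between castrate resistant and androgen sensitive tumors, 7 of the 33 genes differed, 4 higher and 3 lower in castrate resistant tumors (edgeR quasi-likelihood test with tumor type as a covariate, adjusted p under 0.05 over 17797 genes). Pdk1, Hif1a, Pfkfb3 and Egln1 were higher, and Hk2, Pfkm and Pfkfb4 were lower. The share of all genes called was 11.4% (5.66% higher and 5.72% lower), so 7 of 33 is read against that background. The phenotypes did not overlap for 8 of the 33, the 7 called genes and Hk1, against 18.4% of all genes. Castrate resistant tumors were all higher for 4 and all lower for 4, against 8.96% and 9.49%. The fold change was above 1 for 18 of the 33 and for 49.6% of all genes. The median log2 fold change was 0.02 for the 33 genes and -0.01 for all genes tested, so the list as a whole did not lie to one side.

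Pdk1 (chromosome 2, 71873224 to 71903858, plus strand) showed the largest difference of the 7. Its level was 13.4, 13.4, 12.8 and 23.9 CPM in primary AS1, primary AS2, metastatic AS1 and metastatic AS2. In primary CR1, primary CR2, metastatic CR1 and metastatic CR2 it was 64.3, 40.8, 75.2 and 49.4 CPM. Every castrate resistant tumor was above every androgen sensitive one, and metastatic AS2 was the highest of the latter. The mean was 15.9 ± 5.34 CPM (SD, n = 4) in androgen sensitive tumors and 57.4 ± 15.3 CPM (SD, n = 4) in castrate resistant ones, a 3.63-fold difference (log2 1.86, SE 0.25, adjusted p = 0.00594 by edgeR). An exact two-sided permutation test of the 4 against 4 values gave p = 0.0286, the smallest that this design allows, and the other 7 genes without overlap have that same p.

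The other regulators of flux, Pfkfb3 and Pfkfb4, moved in opposite directions. Both encode bifunctional enzymes that set the level of a sugar phosphate activating phosphofructokinase, and both are known HIF targets. Pfkfb3 (chromosome 2, 11471433 to 11554077, minus strand) was at 14.2, 13.1, 12.7 and 14.3 CPM in the androgen sensitive tumors, in the order used for Pdk1. In the castrate resistant tumors it was at 21.1, 19.2, 20.2 and 22.5 CPM. The spread within a phenotype was small, and the mean was 13.6 ± 0.795 against 20.8 ± 1.40 CPM (SD, n = 4 each), 1.52-fold higher in castrate resistant tumors (log2 0.60, SE 0.14, adjusted p = 0.0295). Pfkfb4 (chromosome 9, 108991778 to 109032228, plus strand) was at 9.83, 5.50, 6.62 and 7.26 CPM in androgen sensitive tumors. It was at 4.41, 1.93, 3.51 and 1.59 CPM in castrate resistant tumors, where raw counts went down to 38, and the groups did not overlap. The mean fell from 7.30 ± 1.83 to 2.86 ± 1.33 CPM (SD, n = 4 each), 2.54-fold lower (log2 -1.35, SE 0.35, adjusted p = 0.0428).

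Among the HIF subunits and their hydroxylases, Hif1a and Egln1 were higher in castrate resistant tumors, and Epas1, Arnt and Egln3 did not pass the test. Hif1a (chromosome 12, 73901375 to 73947530, plus strand), the main oxygen-regulated alpha subunit, was at 94.0, 115, 126 and 137 CPM in the androgen sensitive tumors. It was at 214, 222, 220 and 206 CPM in the castrate resistant tumors, a narrow range well clear of the others. The mean was 118 ± 18.3 and 216 ± 7.21 CPM (SD, n = 4 each), 1.83-fold higher (log2 0.87, SE 0.15, adjusted p = 0.0134). Of the exonic bases of Hif1a, 5.6% overlap an antisense gene, and whether counting used strand is not given in the sources used here.

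Egln1 (chromosome 8, 124908587 to 124949324, minus strand) encodes the main hydroxylase that marks HIF alpha for destruction, and is itself induced by HIF. It was at 35.8, 42.1, 33.9 and 44.9 CPM in androgen sensitive tumors and at 48.4, 55.8, 66.4 and 71.2 CPM in castrate resistant tumors. The groups did not overlap, although primary CR1 came within a few CPM of metastatic AS2. The mean was 39.2 ± 5.20 against 60.5 ± 10.3 CPM (SD, n = 4 each), 1.52-fold higher (log2 0.60, SE 0.16, adjusted p = 0.0428).

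Epas1, the alternative alpha subunit, was at 12.4, 6.51, 6.31 and 8.85 CPM in androgen sensitive and at 4.10, 8.37, 4.85 and 5.53 CPM in castrate resistant tumors. Primary CR2 lay among the androgen sensitive tumors, and the difference did not pass the test (log2 -0.59, SE 0.29, adjusted p = 0.219). Arnt, the constant partner of both, had a log2 difference of 0.40 (SE 0.18, adjusted p = 0.184). Egln3, a hydroxylase strongly induced by hypoxia, was at 0.606, 1.15, 0.481 and 3.45 CPM in androgen sensitive and at 0.545, 1.09, 1.67 and 4.48 CPM in castrate resistant tumors. Its highest 2 values were those of metastatic AS2 and metastatic CR2, and the phenotypes overlapped (log2 0.24, SE 0.62, adjusted p = 0.828).

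**Figure D2:**
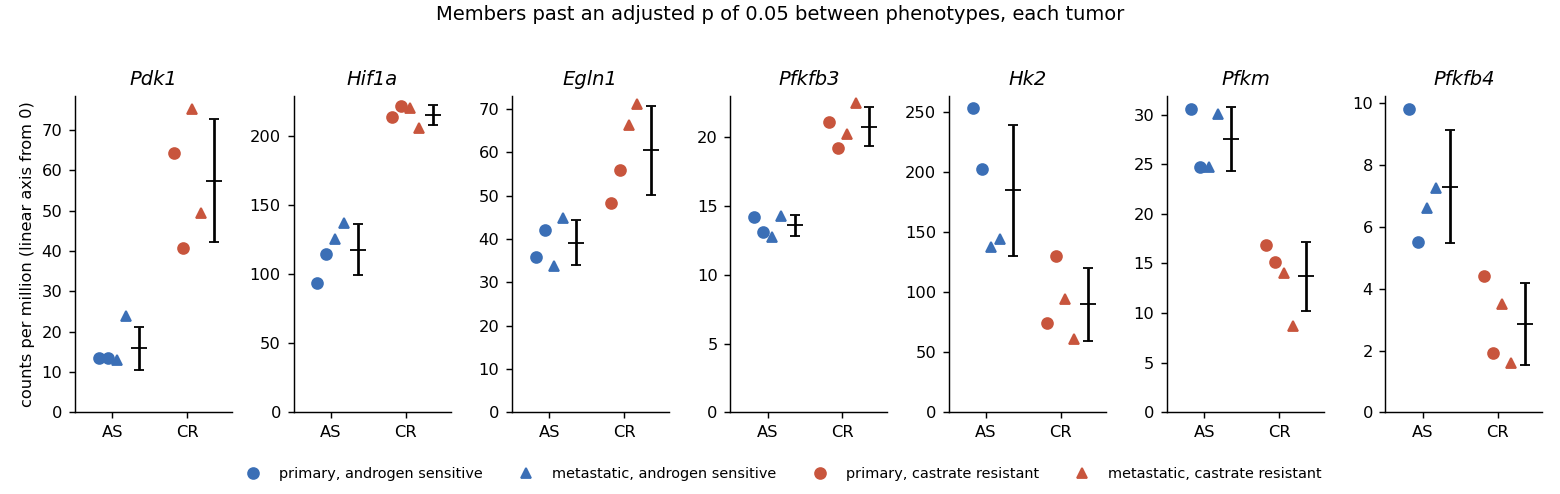
CPM of the 7 genes past the adjusted threshold between phenotypes, on linear axes from 0, 1 point per tumor (circles primary, triangles metastatic) beside the mean and SD of 4 tumors. The groups do not overlap for any of the 7, with Pdk1 between 12.8 and 23.9 in androgen sensitive (AS) and between 40.8 and 75.2 in castrate resistant (CR) tumors.

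Of the 14 glycolytic enzymes, 2 were lower in castrate resistant tumors and none was higher by the adjusted test, against 5.72% and 5.66% of all genes. At an unadjusted p under 0.05, 3 were lower and 0 higher, against 14.4% and 13.8% of all genes. DESeq2 called Hk1 as well, in a fit that called 20% of all genes. Hk2 (chromosome 6, 82725025 to 82774454, minus strand), the hexokinase typical of tumors and muscle, which traps glucose in the cell, was at 254, 203, 138 and 145 CPM in androgen sensitive tumors. It was at 74.1, 130, 94.5 and 60.8 CPM in castrate resistant tumors. Primary CR2 came close to metastatic AS1, but the groups did not overlap. The mean fell from 185 ± 54.5 to 89.8 ± 30.1 CPM (SD, n = 4 each), 2.03-fold (log2 -1.02, SE 0.23, adjusted p = 0.0263).

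Pfkm (chromosome 15, 98092589 to 98132451, plus strand), the muscle-type subunit of phosphofructokinase, which commits sugar to glycolysis, was at 30.6, 24.7, 24.7 and 30.1 CPM in androgen sensitive tumors. In castrate resistant tumors it was at 16.9, 15.2, 14.1 and 8.75 CPM, with metastatic CR2 lowest. The mean fell from 27.5 ± 3.25 to 13.7 ± 3.50 CPM (SD, n = 4 each), 2.05-fold (log2 -1.03, SE 0.21, adjusted p = 0.0192). Exons of other genes cover 10.7% of its exonic bases. Both Hk2 and Pfkm are also used by skeletal muscle, of whose 5 markers Tnnt3 was called lower in castrate resistant tumors. The summed level of these markers was 3.48 to 15.0 CPM in androgen sensitive and 1.59 to 15.4 CPM in castrate resistant tumors. The defining genes Ckm and Myh4 were below 0.5 CPM in every tumor.

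Hk1, the widely expressed hexokinase, was lower in every castrate resistant tumor than in any androgen sensitive one (51.1 ± 9.82 against 77.1 ± 10.7 CPM, SD, n = 4 each) but did not pass the adjusted threshold (log2 -0.60, adjusted p = 0.0698). The remaining 11 enzymes had log2 differences from -0.38 (Pfkp) to 0.66 (Aldoc), none past the test. Pgk1, which makes the first ATP of the pathway, was at 66.1, 95.0, 57.2 and 120 CPM in androgen sensitive and at 115, 77.6, 129 and 147 CPM in castrate resistant tumors. Its groups overlapped through metastatic AS2 and primary CR2 (log2 0.44, SE 0.26, adjusted p = 0.306). Ldha was at 377, 441, 390 and 644 CPM in androgen sensitive and at 612, 292, 483 and 587 CPM in castrate resistant tumors. The lowest and the second highest value both belonged to primary CR tumors (log2 0.09, SE 0.26, adjusted p = 0.853). Pkm had a log2 difference of 0.40 (SE 0.24, adjusted p = 0.31).

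Neither transporter passed the test by edgeR or DESeq2. Slc16a3 was lower at an unadjusted p under 0.05, as were 14.4% of all genes. It passed by edgeR with no filter on low counts (adjusted p = 0.0313, and 0.0313 to 0.485 over the alternatives). Slc2a1, the main glucose importer of tumor cells, was at 23.8, 24.7, 18.0 and 36.6 CPM in androgen sensitive tumors and at 21.6, 14.9, 21.8 and 15.9 CPM in castrate resistant tumors (log2 -0.48, SE 0.24, adjusted p = 0.236). Metastatic AS2 was the highest by a wide margin, and metastatic AS1 lay within the castrate resistant range. Slc16a3 was at 2.12, 3.15, 1.57 and 4.24 CPM against 1.36, 1.09, 1.05 and 2.18 CPM, with metastatic CR2 overlapping the androgen sensitive range (log2 -0.99, SE 0.38, adjusted p = 0.131).

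None of the 9 other hypoxia-induced genes passed the adjusted threshold between phenotypes. Their log2 differences ran from -0.73 for Ero1l, an oxidase of the endoplasmic reticulum (adjusted p = 0.0792), to 0.71 for Ddit4, an inhibitor of mTOR signalling (adjusted p = 0.0794). These 2 were at an unadjusted p under 0.05 (28.2% of all genes) and were called by DESeq2 (20% of all genes). Bnip3, which drives removal of mitochondria, was at 47.4, 54.7, 33.0 and 98.1 CPM in androgen sensitive and at 70.5, 43.9, 107 and 94.9 CPM in castrate resistant tumors, overlapping widely (log2 0.39, adjusted p = 0.462). Car9, a classical HIF target that balances acid at the cell surface, was at 0.335, 1.57, 0.671 and 2.27 CPM in androgen sensitive tumors. It was at 7.50, 1.14, 3.66 and 5.90 CPM in castrate resistant tumors, of which primary CR2 alone lay inside the androgen sensitive range. Its difference of 3.83-fold (log2 1.94, SE 0.68) did not pass the adjusted threshold by edgeR (adjusted p = 0.0993), with 21 to 619 raw counts per tumor. It was called by DESeq2 (adjusted p = 0.0145) and by edgeR with no filter on low counts (adjusted p = 2.66e-06), and the adjusted p ran from 2.66e-06 to 0.532 over the alternatives. Without primary CR1, its highest tumor, the log2 difference was 1.17.

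The 7 calls depended on the tumors included. Leaving out metastatic AS1 left 1 call (Pdk1), with 2.34% of all genes called in place of 11.4%. There were 2 calls without primary AS1 (4.34% of all genes), primary AS2 (3.26%) or metastatic AS2 (2.66%), 3 without metastatic CR2 (6.01%) and 4 without metastatic CR1 (3.52%). There were 5 without primary CR2 (5.07%, 4 of the 7 and Ddit4) and 8 without primary CR1 (21.6%, the 7 and Arnt). The calls over all genes fell or rose with those of the list. The fold changes moved less, with a log2 of 0.76 to 0.93 for Hif1a, 0.55 to 0.65 for Pfkfb3, 0.48 to 0.70 for Egln1, -1.19 to -0.87 for Hk2, -1.13 to -0.86 for Pfkm and -1.66 to -1.15 for Pfkfb4 over the 8 fits without 1 tumor. With primary tumors alone, or metastatic tumors alone (2 against 2), 0 of the 33 genes passed, against 0.0233% and 5.49% of all genes. At an unadjusted p under 0.05 there were 6 and 9 of the 33, against 10.5% and 27.3% of all genes. The direction of all 7 differences was the same in both. With no filter on low counts, 2 genes were called higher and 6 lower, in place of 4 and 3, and 5 of the 7 calls were shared. Pfkfb3 and Egln1 were lost, and Hk1, Ero1l and Slc16a3 were called lower. Endothelial, macrophage, fibroblast and erythroid markers gave 0 calls between phenotypes. Of the other marker lists, Krt8 was higher, and Tnnt3, Fgb and Ttr were lower, in castrate resistant tumors, and the part of these in the results was not tested.

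**Figure D3:**
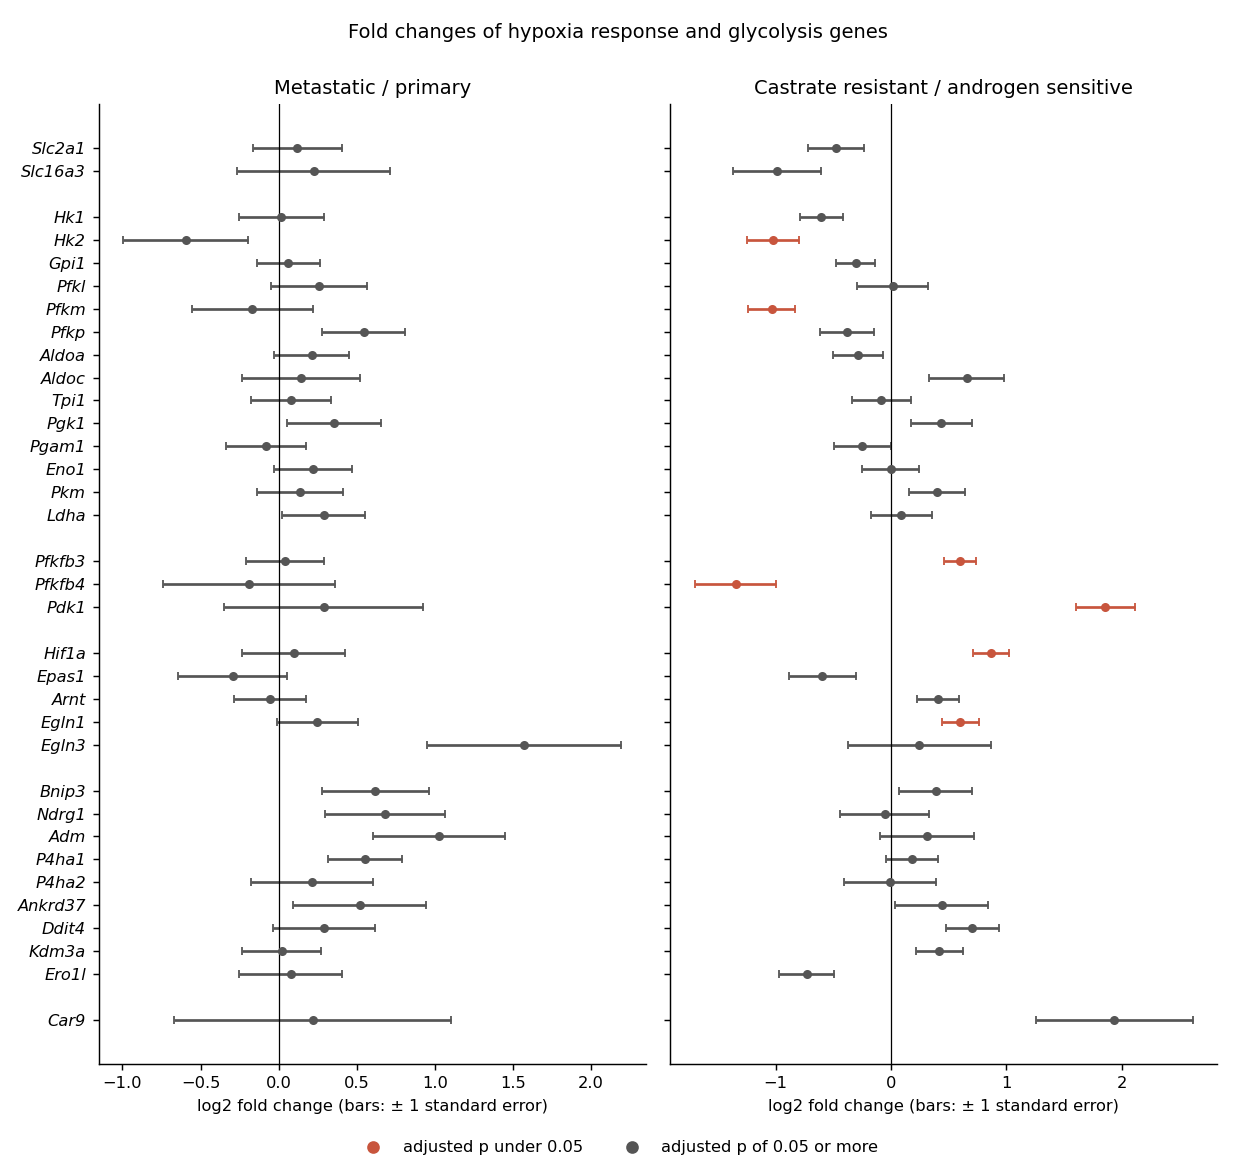
Log2 fold change with 1 standard error for each of the 33 genes and Car9, metastatic over primary (left) and castrate resistant over androgen sensitive (right), grouped by role, with red for an adjusted p under 0.05. The 7 red points are all on the right, from -1.35 (Pfkfb4) to 1.86 (Pdk1), whereas the left panel holds no called gene and most of its points lie above 0.

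Isoform balance was compared within families as shares of length-scaled counts, which need no scaling between tumors. Pfkfb4 made up 45.0% ± 5.07 of Pfkfb3 plus Pfkfb4 in androgen sensitive tumors and 17.3% ± 6.74 in castrate resistant tumors (SD, n = 4 each). The ranges of 39.5% to 51.7% and 9.87% to 24.5% did not overlap. Both values follow from the 2 opposite differences above and are not separate evidence. Pfkm made up 37.2% ± 5.56 of the 3 phosphofructokinase genes in androgen sensitive tumors and 24.6% ± 10.3 in castrate resistant ones, and primary CR2, at 39.0%, lay in the androgen sensitive range. Pfkl, the liver-type subunit, took 43.9% ± 4.18 and 55.8% ± 8.26. Hk2 was the larger part of Hk1 plus Hk2 in every tumor, from 66.4% to 81.7%. The size of these shares depends on gene length, taken as the union of all exons. That union was 13401 bases for Pfkp, 6675 for Pfkl, 3340 for Pfkm, 8532 for Hk1 and 5969 for Hk2. The transcripts used to count read-length windows held 4045, 3630, 2779, 4178 and 5413 windows, in the same order. Lengths taken from those transcripts would lower the shares of Pfkm and Hk2, by an amount that was not computed. Epas1 was 7.32% ± 3.33 of Hif1a plus Epas1 in androgen sensitive tumors and 2.71% ± 0.812 in castrate resistant ones (SD, n = 4 each). These shares did not overlap, with 5.02% the lowest androgen sensitive and 3.83% the highest castrate resistant value. Hif1a makes up most of this sum and was itself called higher, whereas Epas1 alone overlapped and was not called. The Epas1 share is therefore not separate evidence. Aldoa stayed between 97.1% and 99.1% of the aldolase counts.

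**Figure D4:**
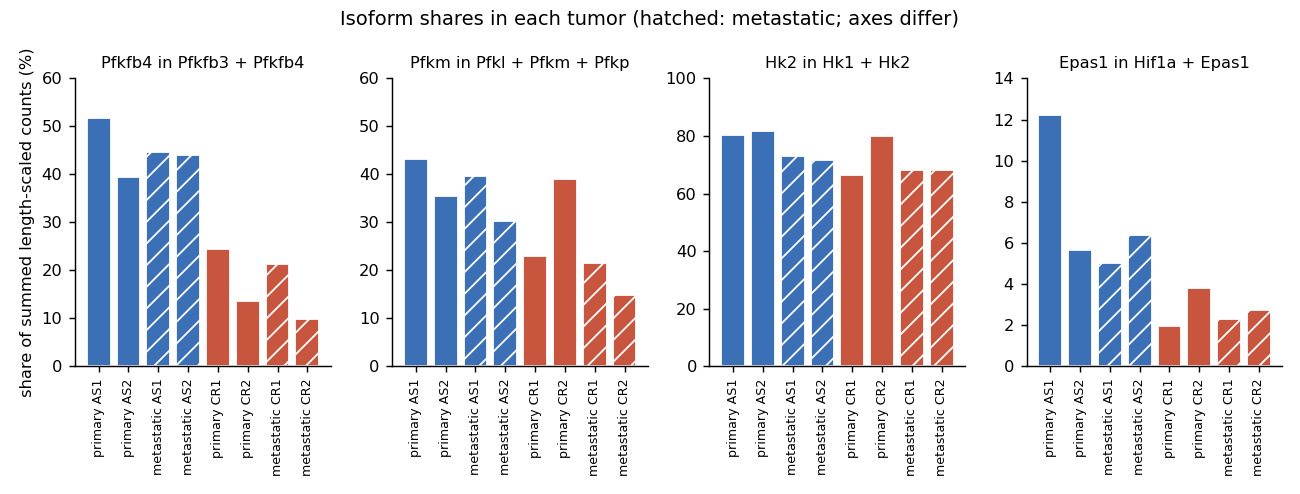
Share of length-scaled counts (percent, linear axes from 0 that differ between panels) held by Pfkfb4, Pfkm, Hk2 and Epas1 within their families, 1 bar per tumor, blue for androgen sensitive, red for castrate resistant and hatched for metastatic. Pfkfb4 held 39.5% to 51.7% in androgen sensitive and 9.87% to 24.5% in castrate resistant tumors, while primary CR2 lay within the androgen sensitive range for Pfkm (39.0%) and Hk2 (79.9%).

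The study set metastatic against primary tumors to look for genes of aggressive disease. Its text counts fewer primary tumors than the labels do, and all 4 labelled primary tumors were used here. In that comparison 0 of the 33 genes passed an adjusted p of 0.05, and 0 of the 17104 genes tested did (0%, edgeR quasi-likelihood test), and DESeq2 also called 0 of each. At an unadjusted p under 0.05 there were 3 of the 33, all higher in metastases, against 2.68% of all genes (1.56% higher and 1.12% lower). These were Egln3, Adm and P4ha1, and each had an adjusted p of 0.997. That fit had no covariate. With phenotype as a covariate (edgeR), 5 of the 33 were at an unadjusted p under 0.05, against 6.59% of all genes, and 0 were called. Hk2, lower in metastases, was among the 5 (log2 -0.55, unadjusted p = 0.0379, adjusted p = 0.729). Without the covariate, the fold change was above 1 for 27 of the 33 genes, against 46.2% of all genes. The median log2 fold change was 0.21 for the 33 and -0.03 for all genes. With no filter on low counts these medians were 0.12 and 0.11. Without 1 tumor the median of the 33 ran from 0.12 (without primary CR2) to 0.30 (without metastatic AS1). Metastatic and primary tumors overlapped for each of the 33 genes, whereas 1.7% of all genes did not overlap (0.854% with all metastases higher and 0.848% with all lower).

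The values by tumor show where these differences sat. Egln3 had a mean of 0.849 ± 0.318 CPM in primary and 2.52 ± 1.79 CPM in metastatic tumors (SD, n = 4 each, log2 1.57, SE 0.62, exact permutation p = 0.171). Metastatic AS1, at 0.481 CPM, was below all 4 primary tumors, and the other metastases were above them. Adm, the vasodilator peptide adrenomedullin, was at 0.590, 1.18, 1.28 and 0.991 CPM in primary AS1, AS2, CR1 and CR2, and at 0.925, 2.83, 1.78 and 2.76 CPM in the metastases in that order. Again metastatic AS1 was the only metastasis within the primary range (log2 1.03, SE 0.42, exact permutation p = 0.114). P4ha1, a collagen prolyl hydroxylase subunit, was at 65.9, 68.3, 81.6 and 48.8 CPM in primary and at 64.4, 102, 118 and 104 CPM in metastatic tumors. The pattern was the same, with metastatic AS1 inside the primary range (log2 0.55, SE 0.24, exact permutation p = 0.114).

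The 9 other hypoxia-induced genes, Bnip3, Ndrg1, Adm, P4ha1, P4ha2, Ankrd37, Ddit4, Kdm3a and Ero1l, all had a positive log2 difference toward metastases, from 0.02 to 1.03, with a median of 0.52. Bnip3 was at 54.2 ± 11.8 CPM in primary and 83.3 ± 33.9 CPM in metastatic tumors (SD, n = 4 each, log2 0.62, adjusted p = 0.997). Metastatic AS1 was again the exception at 33.0 CPM, lowest of all 8, and the other metastases were at 94.9 to 107 CPM, above the highest primary tumor at 70.5 CPM. Exons of antisense genes cover 22.3% of the exonic bases of Bnip3 and 26.4% of those of Ankrd37, which adds to the uncertainty of both.

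Of the 14 enzymes, 11 had a positive and 3 a negative log2 difference toward metastases, with a median of 0.14. Among all 33, the genes below 0 with the smallest unadjusted p without a covariate were Hk2 (log2 -0.59, SE 0.40), Epas1 (log2 -0.29, SE 0.35) and Pfkm (log2 -0.17, SE 0.39). Their exact permutation p-values were 0.314, 0.543 and 0.6. Hk2 was highest in the 2 androgen sensitive primary tumors, at 254 and 203 CPM. Slc2a1 (log2 0.12), Ldha (0.29), Pgk1 (0.35), Slc16a3 (0.23), Hif1a (0.10), Pdk1 (0.29) and Car9 (0.22) had adjusted p-values of 0.997 and overlapped between tumor types. With single tumors left out, the number of the 33 at an unadjusted p under 0.05 was 0 without primary AS1, metastatic AS2 or metastatic CR2, where 1.76%, 2.93% and 1.28% of all genes passed it. It was 1 without primary CR2 (4.52% of all genes), 2 without metastatic CR1 (2.96%) and 3 without primary AS2 (1.9%). The number was 4 without primary CR1 (5.43%) and 7 without metastatic AS1 (3.53%). No adjusted p passed in any of these. The summed endothelial level was 44.2 to 65.3 CPM in primary and 56.6 to 93.6 CPM in metastatic tumors, with 0 of 5 markers called, and its part in these differences was not tested.

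Whether the difference between metastatic and primary tumors itself differed by phenotype was tested as an interaction with 2 tumors per group. None of the 33 passed the adjusted threshold by edgeR or DESeq2, nor did any of 18889 genes by edgeR (0%), and 1 of the 33 was at an unadjusted p under 0.05 against 2.74% of all genes (1.2% above and 1.54% below 0). The interaction was above 0 for 18 of the 33 and for 46.5% of all genes. That gene was Aldoc, the brain-type aldolase (interaction log2 -1.30, SE 0.51, adjusted p = 0.964, edgeR). Its level was 6.15 ± 0.129 CPM in primary AS, 11.6 ± 1.54 in metastatic AS, 15.1 ± 7.64 in primary CR and 11.9 ± 0.846 in metastatic CR tumors (SD, n = 2 each).

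Single tumors stood out across the list. Metastatic AS2 held the highest value of 10 of the 33 genes, among them Slc2a1, Slc16a3, Gpi1, Aldoa, Ldha, Pfkl, Pfkp and Eno1, whereas it was highest for 7.86% of all genes. Primary CR2 held the lowest value of 12, against 14.8% of all genes, and metastatic AS1 the lowest of 8, against 6.36%. Metastatic AS1 was highest for none of the 33. For the 14 enzymes, 8 were lowest in primary CR2, and 6 were highest in metastatic AS2 and 4 in primary CR1. The summed level of the 14 enzymes ran from 2845 CPM in primary CR2 to 5041 CPM in primary CR1, so the lowest and the highest tumor belonged to the same group. Primary CR2 had the lowest TMM factor (0.811) and the lowest share of counts in protein-coding genes of the 8 tumors. Metastatic AS2 was the deepest library, at 91886163 counts, and the part of these features in the pattern was not tested. These tumors were named after their values were seen, so no test is given.

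**Figure D5:**
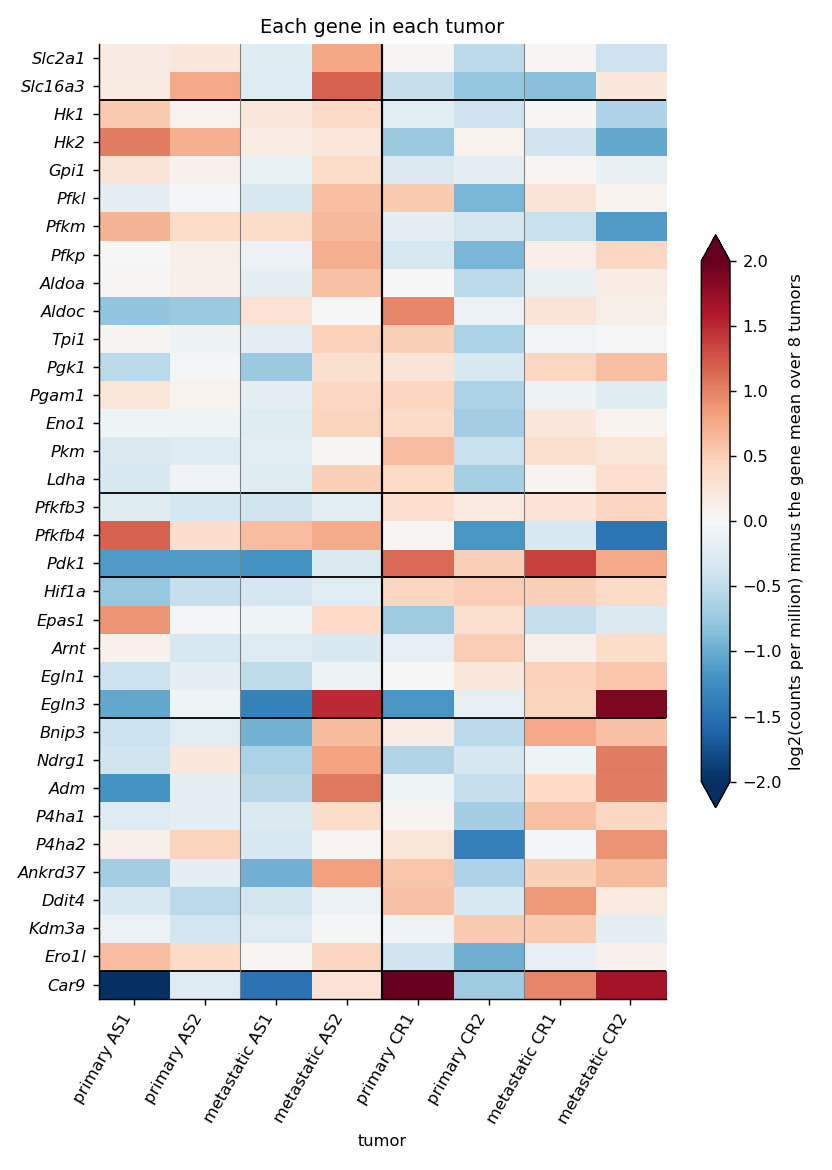
Log2 CPM of each of the 33 genes and Car9 in each tumor, minus the gene's mean over the 8 tumors, with red above and blue below the mean and genes grouped by role. The column of metastatic AS2 is mostly red and that of primary CR2 mostly blue, and the rows of Pdk1, Hif1a and Pfkfb3 change colour between the androgen sensitive (left) and castrate resistant (right) tumors.

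Other genes of the pathway, a list of 43, were read in the same fits, in which 39 could be tested. Metastatic against primary, 0 were called, and 4 were higher and 0 lower at an unadjusted p under 0.05, against 1.56% and 1.12% of all genes. They included Plod2, a collagen lysyl hydroxylase (log2 0.65), the transcription factor Bhlhe40 (0.58) and Pdk3 (0.55). All 4 had an adjusted p of 0.997. Castrate resistant against androgen sensitive, 2 of the 39 were called higher and 5 lower, against 5.66% and 5.72% of all genes, and their means are given with androgen sensitive tumors first. The higher ones were Trf, transferrin, which carries iron (4.04-fold, adjusted p = 0.0188), and Pdk4, another pyruvate dehydrogenase kinase (8.77 ± 4.27 against 21.7 ± 5.12 CPM, SD, n = 4 each, 2.44-fold, adjusted p = 0.0482). Pdk1 and Pdk4 were thus both called higher, Pdk4 close to the threshold, whereas Pdk2 and Pdk3 did not pass (log2 -0.19 and 0.18). Apart from Car9, the genes of this list were not followed with single tumors left out.

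The lower genes included Pfkfb2, Eno3, Egln2 and Hk3. Pfkfb2, the heart-type relative of Pfkfb3, was 2.21-fold lower (108 ± 8.69 against 49.4 ± 5.92 CPM, SD, n = 4 each, adjusted p = 0.00482). Eno3, the muscle-type enolase, was 1.76-fold lower (adjusted p = 0.0245). Egln2, the third HIF hydroxylase, was 2.18-fold lower (52.6 ± 12.4 against 24.8 ± 11.8 CPM, adjusted p = 0.0253), opposite in direction to Egln1. Hk3, a hexokinase of myeloid cells, was 2.36-fold lower (adjusted p = 0.0497), and the summed macrophage level was 316 to 464 CPM in androgen sensitive and 193 to 418 CPM in castrate resistant tumors, with 0 of 5 markers called. Vegfa, the growth factor for vessels, had a log2 difference of 0.71 that did not pass (adjusted p = 0.0997).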

How the data were processed

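RNA was sequenced from 8 Myc-CaP tumors, 2 in each group. The authors depleted ribosomal RNA, made stranded libraries, mapped paired reads to mm10 with Bowtie and kept those with 1 genomic match at 2 mismatches or fewer. The submitters' processing notes also name CASAVA 1.8.2 and TopHat2 2.0. The deposited values are raw counts per gene, with no normalization, and the counting tool and annotation release are not given in the sources used here. A read shared by near-identical genes is lost at the mapping step. Windows of read length that another gene shares, at the same mismatch limit, were therefore counted with bwa 0.7.19 on GENCODE M21. Of 38115 identifiers, 36343 were found there. Windows were matched to transcripts on either strand, so overlapping exons of another gene at the same locus also count as shared.

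Counts were filtered by filterByExpr, scaled by TMM and tested by the quasi-likelihood test of edgeR 4.0.16 in R 4.3.3, with p-values adjusted by the Benjamini-Hochberg method over all genes tested (threshold 0.05). Tumor type was tested without a covariate over 17104 genes, phenotype with tumor type as a covariate over 17797 genes, and the interaction over 18889 genes. Single values were compared by an exact two-sided permutation test. CPM was the count scaled to 1000000 counts of the TMM-corrected library. Levels between genes used the union of all exons of a gene in GENCODE M21 as its length. The steps were tested on simulated data. DESeq2 1.42.0, RLE factors, protein-coding library sizes, no filter, other covariates, single phenotypes or tumor types, possible pairings and each tumor left out were alternatives. Total counts are given with the results, and precision is that of the spread between tumors. Figures were drawn with matplotlib 3.10.9 under Python 3.11.15.

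The genes and lists were chosen with earlier results of these data known. Values in every tumor were given for genes past an adjusted p of 0.05, for the 3 with the smallest unadjusted p in each direction by tumor type and by phenotype, and for Slc2a1, Hk2, Pgk1, Ldha, Slc16a3, Ca9 (as Car9), Bnip3, Hif1a, Epas1 and Egln3. The other genes were given by range and counts. The marker lists were of prostate tumor cells, endothelium, macrophages, neutrophils, fibroblasts, skeletal muscle, hepatocytes, red cells, adipocytes, lung epithelium and lymphocytes. Some genes of the pathway and marker lists are counted but not reported here by name.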

Additional observations from a re-analysis of the deposited data

Results flagged for a closer look

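Among 136 sets of 4 tumors (each of the 33 genes and Car9 within primary, metastatic, androgen sensitive and castrate resistant tumors), 7 held 1 tumor whose gap to the nearest other exceeded the 95% limit of Dixon's test. Chance sets apart about 1 in 20 such sets, which is close to this number.

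Pkm was at 2405 CPM in primary CR1 and at 1150 to 1312 CPM in the other primary tumors, and Ddit4 was at 72.0 CPM there against 33.0 to 39.0 CPM. Pdk1 was at 23.9 CPM in metastatic AS2 against 12.8 to 13.4 CPM in the other androgen sensitive tumors, still below every castrate resistant tumor. P4ha1 was at 102 CPM in metastatic AS2 against 64.4 to 68.3 CPM. Arnt was at 34.1 CPM in primary AS1 against 25.6 to 27.0 CPM in the other androgen sensitive tumors. Bnip3 was at 33.0 CPM in metastatic AS1 against 94.9 to 107 CPM in the other metastases. Ankrd37 was at 2.38 CPM in primary CR2 against 5.12 to 5.65 CPM in the other castrate resistant tumors.

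None of the 33 genes had an interaction of tumor type and phenotype past an adjusted p of 0.05.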

How the results depend on the processing

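Metastatic against primary, 0 of the 33 genes were called in the 11 other fits and in the 8 fits without 1 tumor. Within these, the labels call metastases matched without naming the pair, so a replicate block was fitted for each of the 4 pairings that are possible, and 0 genes were called in each (3, 3, 1 and 1 at an unadjusted p under 0.05, against 7.19%, 5.35%, 6.09% and 4.65% of all genes). The interaction gave 0 calls in 4 other fits and 8 without 1 tumor. Castrate resistant against androgen sensitive, 7 calls (11.4% of all genes called) became 10 with DESeq2 (20%) and 7 with RLE factors (11.9%). There were 6 with protein-coding library sizes (10.6%, Egln1 lost) and 8 with no filter (9.72%, 5 of the 7 and 3 others). Calls numbered 7 without the covariate (11.1%), but 0 with primary (0.0233%) and 0 with metastatic tumors alone (5.49%), where 2 tumors stand against 2. Without 1 tumor the count ran from 1 (2.34% of all genes) to 8 (21.6%). Without a filter the median log2 fold change of all genes was 0.11, so the split of 2 higher and 6 lower is relative to that.

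Pdk1 was called in all 8 fits without 1 tumor (log2 1.68 to 2.08), and over all alternatives its adjusted p ran from 1.95e-12 to 0.182. Hif1a was lost without metastatic AS1 or primary AS2, Pfkm in 3 of the 8, Hk2 in 5, and Pfkfb3, Pfkfb4 and Egln1 in 7 each, while the calls over all genes fell too. Hif1a had a log2 of 0.87 and 0.90 in the 2 fits that lost it, against 0.87. No direction between phenotypes reversed for the 14 genes followed. Toward metastases, Pfkm turned to 0.0042 in androgen sensitive tumors only, and without 1 tumor it ran from -0.46 (without metastatic AS2) to 0.071 (without metastatic CR2, and 0.035 without primary AS1) and Epas1 from -0.51 (without primary CR1) to 0.017 (without primary AS1). Metastatic AS2 was highest for 10 genes under each scaling, and primary CR2 lowest for 11 to 12. The cause of these changes was not tested. Depth limits most the genes with few counts, Adm (20 to 289), Egln3 (22 to 352), Slc16a3 (22 to 433) and Car9 (21 to 619).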
